A study of Mus musculus with 6 samples.

Results

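The genes described here are 10 named genes of the integrated stress response, chosen by symbol among the 17463 genes of the deposited tables. They comprise the eIF2α kinase genes Eif2ak1, Eif2ak3 and Eif2ak4, the transcription factor genes Atf4, Atf5 and Ddit3, and the effector genes Asns, Trib3, Chac1 and Ppp1r15a. RNA was sequenced from mouse erythroblasts of the C57BL/6J strain in 2 groups of 3 samples. The starting material was fetal liver cells lacking TER119, a surface protein of maturing red cell precursors. They were grown in the presence of erythropoietin (Epo) for 30 h, with 40 µM cholesterol added in the cholesterol group and none in the control group. The study's methods state that the cells that had become TER119+ were then sorted for sequencing, whereas the labels name only the TER119-negative starting cells. The labels describe the controls as untreated, while a figure legend of the study calls them vehicle-treated. The labels name no transgene or mutation and give no fetal age, while the study describes its fetal liver culture as started from midgestation embryos.

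The integrated stress response lowers protein synthesis when a kinase phosphorylates the α subunit of the initiation factor eIF2. Each kinase answers to its own signal, and the heme-regulated inhibitor HRI, encoded by Eif2ak1, acts in red cell precursors when heme is short, when oxidants rise or when mitochondria signal stress. While most messages are translated less, a few with upstream reading frames, among them those of ATF4, ATF5, CHOP and GADD34, are translated more. ATF4 then raises transcription of genes for amino acid supply and of genes that end the response or turn it towards cell death. RNA levels, the only readout here, therefore cover the transcriptional output and not the phosphorylation of eIF2α or the translation of ATF4.

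Total counts lay between 19826849 and 20061724 per sample, so that 3 counts, the smallest level taken as detectable, were worth 0.15 CPM. Levels per sample are CPM, that is, counts relative to the library size after TMM normalization, in the order of samples 1, 2 and 3 of a group. Markers of erythroid cells had the highest sum of the marker lists in every library, at 130694 to 171375 CPM in control and 115590 to 156935 CPM in cholesterol samples, with 12 of 12 markers in the table. The erythroid list includes adult globin genes, whose shares are given below, so its rank says little about purity. The samples numbered 3 stood apart from the others in both groups. Adult globin genes took 14.6%, 13.8% and 17.9% of the counts in control and 12.5%, 13.0% and 16.2% in cholesterol samples. Granulocyte markers summed to 70.3, 253 and 673 CPM in control and to 40.5, 110 and 280 CPM in cholesterol samples, with 10 of 10 in the table. Macrophage markers, also 10 of 10, summed to 18.4, 42.5 and 131 CPM and to 14, 20.1 and 61 CPM. Mast cell and basophil markers summed to between 0.493 and 18.5 CPM, with 7 of 8 in the table and Tpsb2 at 0 in all samples. The 6 hepatocyte markers summed to between 68.3 and 276 CPM and the 6 megakaryocyte markers to between 62.8 and 85.8 CPM. In such mixed RNA, fewer cells of a type and less RNA per cell cannot be told apart.

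At the level of RNA per transcript length, given as FPKM, the 10 genes covered a wide range. Atf4 had the highest level at 521 ± 27.7 FPKM (SD, n = 6), above 99.2% of all genes in the table. Asns followed at 454 ± 42.4 FPKM, and the ranges of these 2 genes over the samples overlapped. Ppp1r15a had 266 ± 71.4, Eif2ak1 199 ± 30.7, Ddit3 144 ± 27.4, Trib3 101 ± 22.2 and Atf5 84.1 ± 11.2 FPKM. Among these 5 genes, every neighbouring pair in the order overlapped over the 6 samples. Chac1 was lower at 14.1 ± 1.73 FPKM, without overlap with Atf5. The kinase genes Eif2ak3 and Eif2ak4 had the lowest levels, 3.08 ± 0.355 and 2.61 ± 0.287 FPKM, which overlapped each other and lay above 57.3% and 55.8% of all genes.

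**Figure D1:**
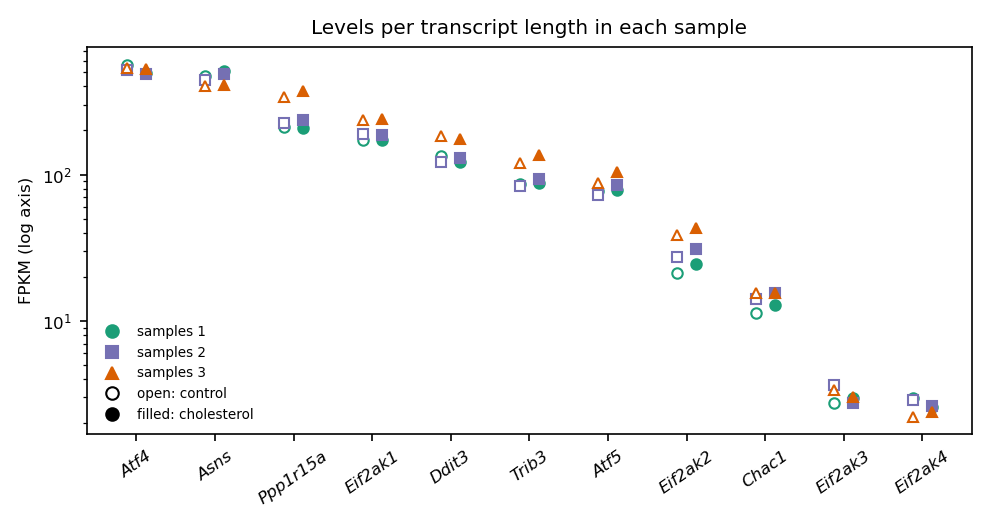
Level per transcript length (FPKM, log axis) of the 10 genes and of Eif2ak2 in each of the 6 samples, ordered by mean level. Open symbols are control and filled symbols cholesterol samples, and colour and shape give the sample number. Atf4 and Asns lie highest, and Eif2ak1 lies above the other kinase genes in every sample.

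The eIF2α kinase genes were first compared with each other. Eif2ak1 (chr5:143817792-143902717, plus strand, GRCm38.p6) encodes HRI. Its level was 171, 189 and 236 FPKM in control and 172, 187 and 239 FPKM in cholesterol samples. Eif2ak3 (chr6:70844484-70905241, plus strand) encodes PERK, which responds to unfolded protein in the endoplasmic reticulum. Eif2ak3 had 2.74, 3.62 and 3.37 FPKM in control and 2.96, 2.73 and 3.03 FPKM in cholesterol samples. Eif2ak4 (chr2:118388583-118475234, plus strand) encodes GCN2, which senses uncharged tRNA. Eif2ak4 had 2.99, 2.86 and 2.22 FPKM in control and 2.59, 2.6 and 2.38 FPKM in cholesterol samples. In every sample, the FPKM of Eif2ak1 was thus 52.3 to 79 times that of Eif2ak3 and 57.3 to 106 times that of Eif2ak4. The remaining kinase of the family, PKR, which binds double-stranded RNA, is encoded by Eif2ak2. This gene was added for completeness outside the naming rule. Eif2ak2 had 21.4, 27.3 and 38.7 FPKM in control and 24.6, 30.9 and 43.1 FPKM in cholesterol samples, so that Eif2ak1 exceeded it by 5.56 to 7.99 times. Of the FPKM summed over the 4 kinase genes, Eif2ak1 held 83.2% to 86.3%.

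Cholesterol against control was the comparison of the study, and it asks here whether added sterol changed the RNA of the stress response. No member of the list was called different in edgeR's quasi-likelihood test with condition alone, with an adjusted p of 1 for each of the 10 genes. None had an unadjusted p under 0.05, and DESeq2 and limma on log2 FPKM also called 0 members. Over all 11277 genes tested, 297, or 2.63%, had an unadjusted p under 0.05, and 1 gene, or 0.00887%, was called. All 10 members passed the filter on low counts. On average 5 members were higher and 5 lower with cholesterol, and the median log2 fold change was 0.01, beside 0.006 over all genes tested. In no member did the 3 cholesterol samples all lie above or all below the 3 control samples. Among all genes tested, 3.72% had higher and 4.28% had lower groups without overlap.

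**Figure D2:**
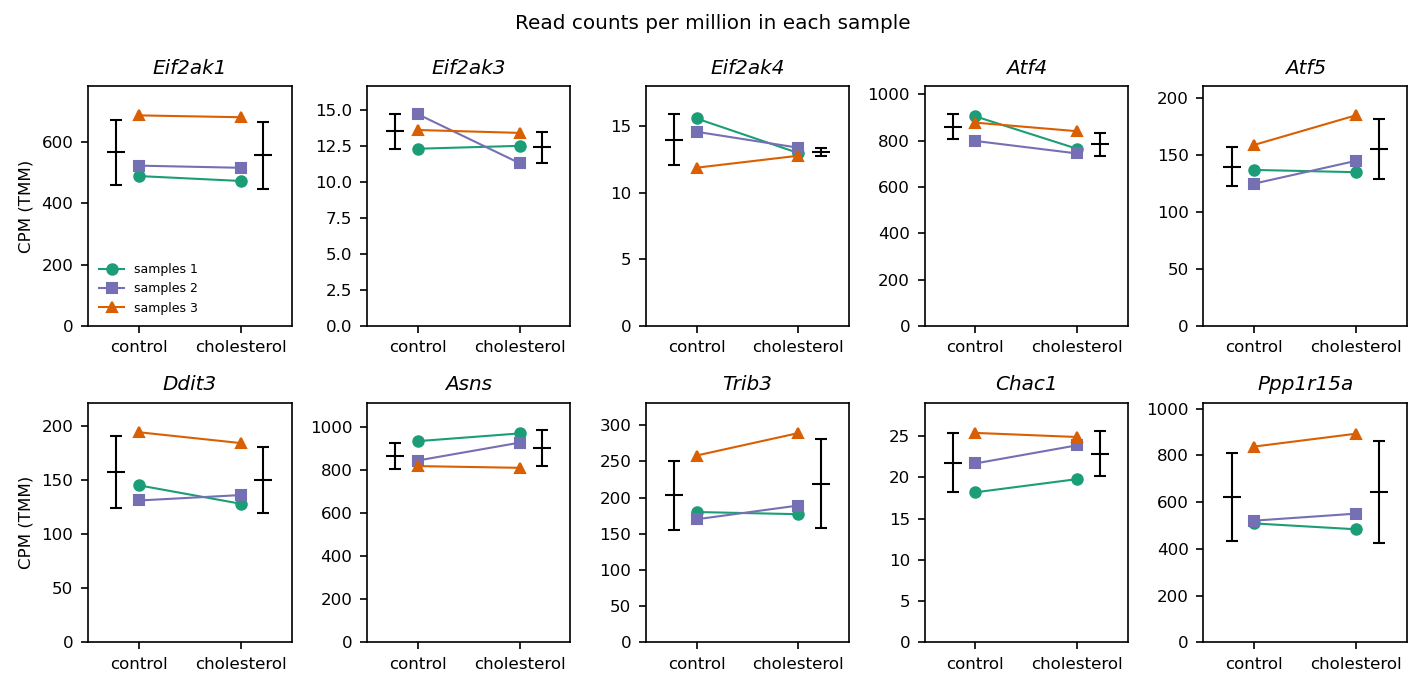
CPM after TMM normalization of each of the 10 genes in the control and cholesterol samples, with lines joining samples of the same number and the mean ± SD of each group of 3 beside the points. In Eif2ak1, Ddit3, Trib3 and Ppp1r15a the samples numbered 3 lie above the others in both groups, while the lines are close to level.

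An exact permutation test of 3 against 3 samples cannot reach a p below 0.1 for 1 gene, so the precision is given by intervals. With condition alone, the 95% intervals of the log2 fold changes over the 10 genes reached from -0.67 to 0.76, both bounds being those of Ppp1r15a. The narrowest interval, that of Atf4, reached 0.19 to either side of the estimate. When the replicate number, which paired the samples, was added as a block, the intervals lay between -0.33 and 0.25, and reached 0.08 to 0.2 to either side of the estimates. The block fit called 186 genes higher and 586 lower, together 6.85% of those tested, and 0 of the 10 members. Its median log2 fold change was 0.004 over the members and 0.006 over all genes. Unadjusted p in this fit was under 0.05 in 3 members, Atf4, Atf5 and Trib3, beside 19.6% of all genes tested.

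**Figure D3:**
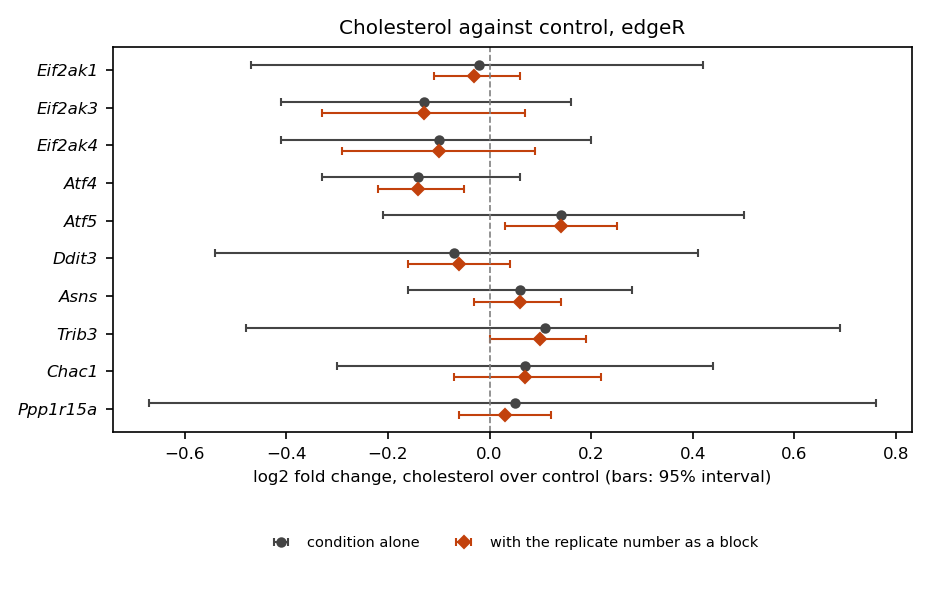
Log2 fold change of cholesterol over control for each of the 10 genes, with 95% intervals, from edgeR with condition alone (circles) or with a block for replicate number (diamonds). All intervals with condition alone include 0, and with the block those of Atf4 and Atf5 and, at its very edge, that of Trib3 do not, although no gene passed after adjustment over all genes.

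Among the kinase genes, Eif2ak1 was almost level between the groups. Its CPM was 489, 523 and 687 in control and 473, 516 and 681 in cholesterol samples. The same-numbered samples nearly coincided, while the samples numbered 3 were the highest and those numbered 1 the lowest in both groups. The log2 fold change was -0.02 (SE 0.18, 95% interval -0.47 to 0.42), and with the block -0.03 (SE 0.04, -0.11 to 0.06, edgeR adjusted p = 0.787). The interval with the block thus reached from 0.93-fold to 1.04-fold. Eif2ak3 had 12.3, 14.7 and 13.6 CPM in control and 12.5, 11.3 and 13.4 CPM in cholesterol samples, from 229 to 297 counts. Only samples 2 differed visibly, by -0.38 on the log2 scale, against 0.02 and -0.02 in the other pairs. Eif2ak4 had 15.6, 14.6 and 11.9 CPM in control and 13, 13.4 and 12.8 CPM in cholesterol samples. Its pairs differed by -0.26, -0.13 and 0.1, so that they did not share a direction. The log2 fold changes of Eif2ak3 and Eif2ak4 were -0.13 (SE 0.12) and -0.1 (SE 0.13).

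Atf4 (chr15:80255184-80257545, plus strand) encodes the central transcription factor of the response. It had 904, 798 and 877 CPM in control and 764, 744 and 840 CPM in cholesterol samples. Each cholesterol sample was lower than the control of the same number, by -0.24, -0.1 and -0.06 on the log2 scale, but the groups overlapped. Of all genes tested, 20.1% were lower in all 3 pairs, and 2 of the 10 members were, Eif2ak1 and Atf4. The share of genes higher in all 3 pairs was 19.9%, and no member was among them. The log2 fold change of Atf4 was -0.14 (SE 0.08, 95% interval -0.33 to 0.06) with condition alone. With the block it was -0.14 (SE 0.04, -0.22 to -0.05), or 0.91-fold, and edgeR's adjusted p was 0.0632. Without both samples numbered 3 the block fit gave -0.17 and an adjusted p of 0.00159, which was the only setting that called Atf4. That fit called 6.52% of all genes tested.

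Atf5 (chr7:44812256-44816658, minus strand) encodes a relative of ATF4 that takes part in the mitochondrial stress response. It had 137, 125 and 159 CPM in control and 135, 145 and 185 CPM in cholesterol samples. The pairs differed by -0.02, 0.22 and 0.22 on the log2 scale, so samples 2 and 3 were higher with cholesterol and samples 1 were alike. The log2 fold change was 0.14 (SE 0.15, 95% interval -0.21 to 0.5), and with the block 0.14 (SE 0.05, 0.03 to 0.25, edgeR adjusted p = 0.12). Without both samples numbered 1 the block fit gave 0.22 and an adjusted p of 0.033, the only setting that called Atf5. That fit called 7.14% of all genes tested. Ddit3 (chr10:127290793-127296291, plus strand) encodes CHOP, a factor linked to cell death under lasting stress. It had 145, 131 and 194 CPM in control and 128, 136 and 184 CPM in cholesterol samples, with pair differences of -0.17, 0.05 and -0.08. Both samples numbered 3 were above the other 4, and the pairs did not share a direction. Ddit3 was the only member with counts that were not all whole. The annotated ends of Ddit3, Atf5 and Ppp1r15a overlap genes on the opposite strand, and the strand setting of the counting is not given in the sources used here.

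The effector genes were Asns, which makes asparagine, Trib3, a pseudokinase that restrains ATF4 and AKT signalling, Chac1, which degrades glutathione, and Ppp1r15a. The last encodes GADD34, which directs a phosphatase to eIF2α and so closes the response. ATF4 acts with C/EBP factors at a composite element, the CARE, searched here as TGATGNAA. The cyclic AMP response element (CRE), bound by factors of the ATF and CREB families, was searched as TGACGTCA. Both strands of the RefSeq promoter windows of GRCm38.p6, from 250 bases before to 50 bases after each start, were searched. The 2 motifs were counted apart, so overlapping matches would count for each. All 10 members were matched, with 12 windows. The CARE was found in 3 members, in 3 of the 12 windows, against 3.97% of all 32851 windows. The CRE was found in 1 member, in 1 of the 12 windows, against 1.79%. The stretches that hold them are shown on the strand of the gene, with the motif in capitals, because ATF4 and its relatives are known to act through such elements. A match of letters does not show that a factor binds.
Asns, chr6:7693214-7693243, minus strand: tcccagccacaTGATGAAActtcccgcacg
Trib3, chr2:152344028-152344057, minus strand: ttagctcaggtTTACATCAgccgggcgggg
Chac1, chr2:119351038-119351067, plus strand: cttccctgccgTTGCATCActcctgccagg
Ppp1r15a, chr7:45526262-45526291, minus strand: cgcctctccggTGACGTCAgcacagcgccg
The first base of the motif lies at -23 from the start in Asns, at 15 in Trib3, at -193 in Chac1 and at -12 in Ppp1r15a. In Trib3 and Chac1 the element reads on the opposite strand, so its reverse complement appears in capitals.

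Asns (chr6:7675165-7693209, minus strand) had 936, 846 and 820 CPM in control and 972, 929 and 812 CPM in cholesterol samples. The groups overlapped, samples 1 were the highest and samples 3 the lowest, and the log2 fold change was 0.06 (SE 0.09). Chac1 (chr2:119351242-119354326, plus strand) had 18.2, 21.7 and 25.4 CPM in control and 19.8, 23.9 and 24.9 CPM in cholesterol samples. Its log2 fold change was 0.07 (SE 0.15), from 360 to 489 counts per sample. The order of the sample numbers was the reverse of that of Asns. Both genes hold a CARE match, and in each the control and cholesterol samples overlapped.

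Trib3 (chr2:152337425-152344060, minus strand) had 180, 170 and 258 CPM in control and 177, 189 and 289 CPM in cholesterol samples. The samples numbered 3 were far above the other 4, and the pairs differed by -0.03, 0.15 and 0.16 on the log2 scale. With the block, the log2 fold change was 0.1 (SE 0.05, edgeR adjusted p = 0.252). Ppp1r15a (chr7:45522917-45526268, minus strand) had 509, 521 and 838 CPM in control and 484, 551 and 893 CPM in cholesterol samples. Here too the samples numbered 3 were the highest in both groups, and cholesterol samples lay on both sides of their controls. Its log2 fold change was 0.05 with condition alone (SE 0.29) and 0.03 with the block (SE 0.04, 95% interval -0.06 to 0.12, edgeR adjusted p = 0.744).

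Most of these genes differed between the replicate numbers. A test of the replicate number in edgeR, with condition in the model, called 8 of the 10 members, all but Eif2ak3 and Eif2ak4. Over all genes tested this test called 46.3%. Both samples numbered 3 lay above the other 4 samples in 6 members, Eif2ak1, Atf5, Ddit3, Trib3, Chac1 and Ppp1r15a, against 26.2% of all genes. They lay below in 2 members, Eif2ak4 and Asns, against 27.3%. Ppp1r15a varied most, with a mean of 496 CPM in samples 1, 536 CPM in samples 2 and 865 CPM in samples 3. This is a 1.74-fold range, or 0.8 on the log2 scale (edgeR F = 147, adjusted p = 3.94e-10). Trib3 ranged from 179 to 273 CPM, 1.53-fold (F = 81.5, adjusted p = 2.83e-08 in edgeR). Eif2ak1, with 481, 519 and 684 CPM, ranged 1.42-fold (F = 63.7, adjusted p = 1.42e-07 in edgeR), as did Ddit3 (adjusted p = 8.32e-07).

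Chac1 ranged 1.33-fold between the numbers (edgeR adjusted p = 0.00252), and Atf5 1.28-fold (adjusted p = 0.000195). Asns moved the other way and was highest in samples 1, with means of 954, 887 and 816 CPM (edgeR adjusted p = 0.00375). Atf4 itself varied little, by 0.16 on the log2 scale, with 831, 771 and 858 CPM. Its adjusted p of 0.0481 in edgeR became 0.0852 when no filter on low counts was used. The kinase genes Eif2ak3 and Eif2ak4 ranged by 0.12 and 0.21 on the log2 scale, with edgeR adjusted p of 0.667 and 0.249. The median range was 0.38 over the 10 members and 0.31 over all genes tested. Within each group, the globin share and the summed granulocyte, macrophage and hepatocyte markers given above were also highest in the samples numbered 3, and their part in these differences was not tested. What the numbers stand for is not stated in the labels.

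**Figure D4:**
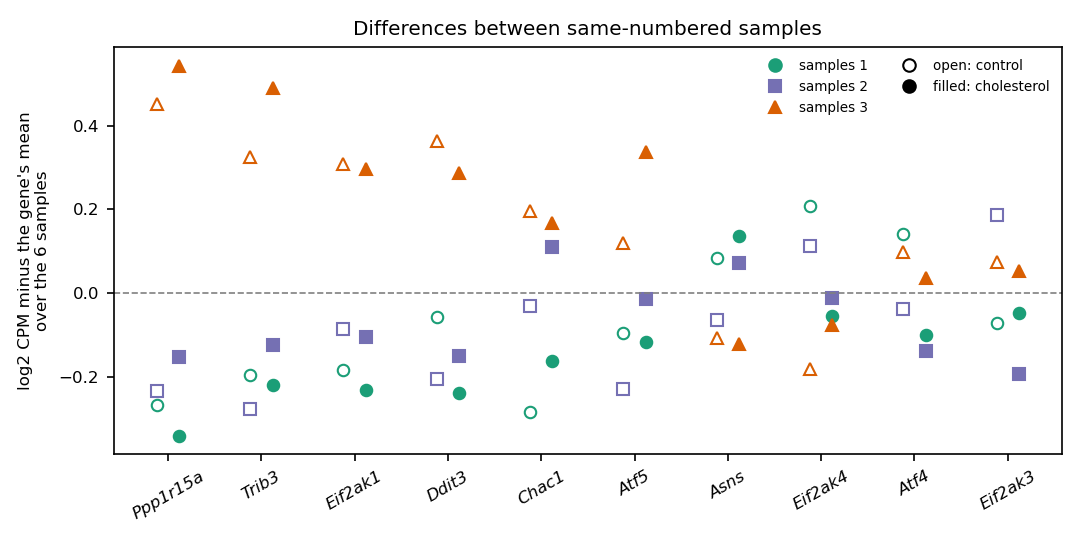
Log2 CPM of each of the 10 genes minus its mean over the 6 samples, ordered by the range between the sample numbers. Triangles, squares and circles are samples 3, 2 and 1, open for control and filled for cholesterol. The triangles lie above all other symbols in Ppp1r15a, Trib3, Eif2ak1, Ddit3, Chac1 and Atf5 and below them in Asns and Eif2ak4.

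Genes most like Atf4 over the 6 samples were sought among 7244 genes with a mean of at least 10 CPM. Likeness was the root mean square difference of log2 CPM after each gene was centred on its own mean, with smaller values for closer patterns. The closest genes were Tfe3, a transcription factor of lysosome genes, at 0.022, Mpg, a DNA repair glycosylase, at 0.023, and Nkiras2 at 0.028. They were followed by Ywhaz, a 14-3-3 protein gene, at 0.029 and Nfe2, an erythroid transcription factor gene, at 0.030. Nfe2 had 409, 359 and 417 CPM in control and 352, 332 and 386 CPM in cholesterol samples. The spread of Atf4 around its own mean was 0.102 on this measure. None of the 5 genes belongs to the list. The same search was made for Ppp1r15a after its values were seen, since it varied most between the numbers. It gave Vwa5a at 0.040, Hscb, an iron-sulfur cluster chaperone gene, at 0.044, Bbc3 at 0.051, Dusp16 at 0.051 and Ube2o, a ubiquitin ligase gene of late red cell maturation, at 0.052. The spread of Ppp1r15a itself was 0.357. Bbc3 encodes PUMA, which promotes apoptosis, and had 47.1, 50.3 and 84.4 CPM in control and 48.3, 54.6 and 82.5 CPM in cholesterol samples.

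Other genes of the pathway were taken from 7 lists with 138 genes in all, of which 131 were tested. With condition alone edgeR called 0 of them and limma on log2 FPKM called 0, while DESeq2 called 1, Hspa1b. The share of all genes that DESeq2 called is not given here, so this 1 call has no background beside it. In 8 genes edgeR's unadjusted p was under 0.05, beside 2.63% of all genes. With the replicate block 13 were called, 6 higher and 7 lower with cholesterol, or 9.92%, beside 6.85% of all genes. Without both samples numbered 1, 2 or 3 the block fit called 10, 8 and 16 of them, beside 7.14%, 2.58% and 6.52% of all genes tested. Markers of other cells moved with treatment in the same fit, which called 9 of 9 granulocyte, 6 of 8 macrophage and 2 of 2 mast cell and basophil markers tested, besides 3 of 12 erythroid, 1 of 6 megakaryocyte and 0 of 6 hepatocyte markers. The summed levels of all these lists but the hepatocyte list were lower with cholesterol in all 3 pairs, and their part in the calls of pathway genes was not tested. The erythroid sum includes adult globin genes, whose share of counts was lower in each pair too, so it does not stand for erythroid markers in general. Groups did not overlap in 4 pathway genes that were higher and 7 that were lower, together 8.4%, beside 3.72% and 4.28% of all genes. The replicate number was called in 89 genes, or 67.9%, beside 46.3% of all genes. Genes below the filter were Jdp2, Batf, Batf3, Cbs, Vldlr and Stc2, and Fgf21 had no row in the table.

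**Figure D5:**
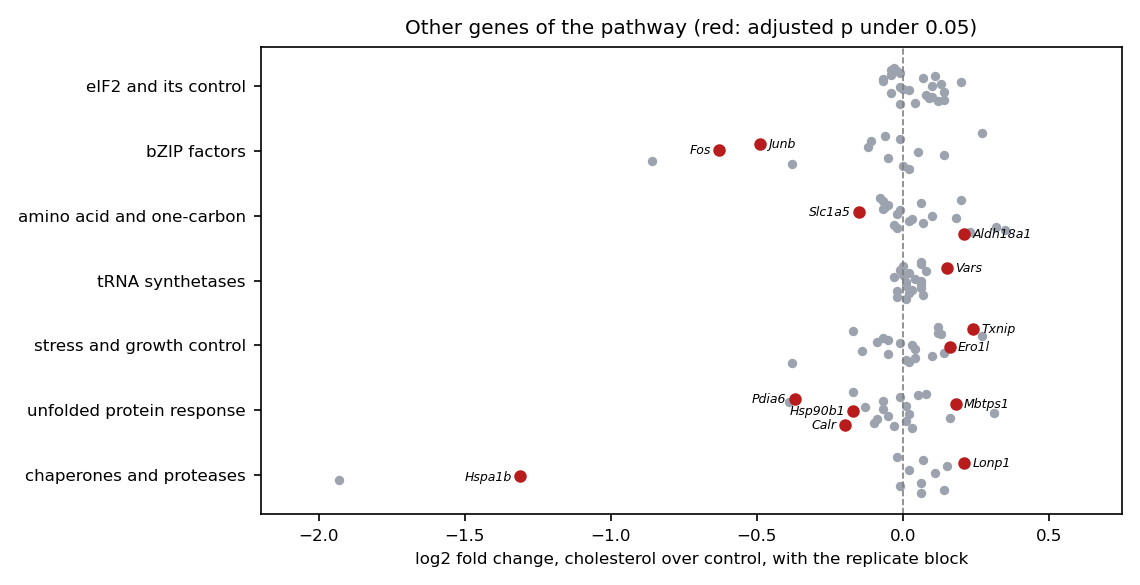
Log2 fold change of cholesterol over control in the fit with the replicate block, for the tested genes of 7 pathway lists (rows), each point being 1 gene, with a few genes in more than one row. Genes with an edgeR adjusted p under 0.05 are red and named. Hspa1b lies farthest from 0 among them, and the eIF2 list has no red point.

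The list of eIF2 and its control, with the eIF2 and eIF2B subunits, phosphatase subunits and the HRI partners Hspa8 and Hsp90aa1, held no call in either direction among 24 genes tested, with or without the block. Its log2 fold changes with condition alone ran from -0.07 to 0.2 with a median of 0.03. With condition alone the smallest p were those of Hmox1, for heme oxygenase, and Eif2b2, whose log2 fold changes with the block were 0.2 and 0.1 (edgeR adjusted p of 0.393 and 0.302). In the block fit Eif2ak2 came closest to a call, at 0.14 (edgeR adjusted p = 0.0619). Hmox1 had 21, 20.6 and 26.1 CPM in control and 28.7, 25.6 and 23.3 CPM in cholesterol samples, higher in samples 1 and 2 and lower in samples 3. The replicate number was called in 18 of the 24 genes, beside 46.3% of all genes tested. In the samples numbered 3, 15 genes of the list lay below the others and 4 above, beside 27.3% and 26.2% of all genes.

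Partners of ATF4 and other bZIP factors were tested in 14 genes, of which the block fit called 2, both lower. Junb, an AP-1 subunit gene, had 89.4, 74.6 and 59.9 CPM in control and 66.3, 51.7 and 41.9 CPM in cholesterol samples (log2 fold change -0.49, edgeR adjusted p = 4.28e-06 with the block). It was lower in every pair, although the groups overlapped. Fos, also an AP-1 gene, had 199, 179 and 151 CPM in control and 131, 134 and 80.8 CPM in cholesterol samples, without overlap (log2 fold change -0.63 and adjusted p = 0.0322 in edgeR with the block). Neither gene was called with condition alone. The AP-1 genes Jun and Jund of the same list, named here beside them after their values were seen, had -0.12 and -0.11 with the block (edgeR adjusted p of 0.167 and 0.227). The C/EBP gene Cebpg, which encodes a dimer partner of ATF4, had a log2 fold change of 0.14 and an edgeR adjusted p of 0.137 with the block. Nupr1, a small stress-induced chromatin protein gene, had 0.27 and an adjusted p of 0.301 in the same edgeR fit. The C/EBP gene Cebpa, named after its value was seen, lay farthest from 0 in this list, at -0.86 with an edgeR adjusted p of 0.069 in that fit.

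Amino acid, one-carbon and transport genes were tested in 21 cases, and the block fit called 1 higher and 1 lower. Aldh18a1, for the first step of proline synthesis, had 154, 135 and 121 CPM in control and 163, 162 and 149 CPM in cholesterol samples (log2 fold change 0.21, edgeR adjusted p = 0.00961 with the block). Slc1a5, a glutamine carrier gene, had 266, 256 and 296 CPM in control and 223, 239 and 277 CPM in cholesterol samples (-0.15, edgeR adjusted p = 0.0487 with the block). Both moved one way in all 3 pairs and overlapped between the groups. Pycr1, for the last step of proline synthesis, had 52.4, 47.3 and 49.3 CPM in control and 57.9, 56 and 54.4 CPM in cholesterol samples. Its groups did not overlap, and its edgeR adjusted p with the block was 0.0511. Of 21 genes of cytosolic tRNA charging and export, Vars, the valyl-tRNA synthetase gene, was called higher in the block fit. Vars had 748, 704 and 643 CPM in control and 826, 749 and 752 CPM in cholesterol samples (log2 fold change 0.15, edgeR adjusted p = 0.0275). The next smallest p was that of Sars, with a log2 fold change of 0.08 and an edgeR adjusted p of 0.28 in the block fit. In this list 16 of 21 genes were lowest in the samples numbered 3, as was Asns, beside 27.3% of all genes.

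Stress and growth control genes were tested in 21 cases, and 2 were called higher with the block. Txnip, which restrains glucose uptake, had 94, 118 and 151 CPM in control and 99.4, 138 and 198 CPM in cholesterol samples (log2 fold change 0.24, edgeR adjusted p = 0.0143 with the block). Ero1l, an oxidase of the endoplasmic reticulum, had 150, 147 and 98.8 CPM in control and 170, 172 and 103 CPM in cholesterol samples (0.16, edgeR adjusted p = 0.0422 with the block). The 2 genes were ordered in opposite ways between the numbers, Txnip being highest and Ero1l lowest in samples 3. In this list 10 of 21 genes were highest in the samples numbered 3 and 5 were lowest, beside 26.2% and 27.3% of all genes.

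The other arms of the unfolded protein response held 22 genes, of which 3 were called lower and 1 higher with the block. Pdia6, a disulfide isomerase gene, had 63.2, 53.9 and 48.8 CPM in control and 46.7, 44.9 and 37 CPM in cholesterol samples (log2 fold change -0.37, edgeR adjusted p = 0.000272 with the block). Calr, for the chaperone calreticulin, had 386, 369 and 402 CPM in control and 333, 323 and 349 CPM in cholesterol samples (-0.2, edgeR adjusted p = 0.00373 with the block). Hsp90b1, for the chaperone GRP94, had 243, 225 and 237 CPM in control and 216, 211 and 199 CPM in cholesterol samples (-0.17, edgeR adjusted p = 0.0222 with the block). In these 3 chaperone genes the groups did not overlap. Hspa5, the chaperone gene BiP, had a log2 fold change of -0.07 and an edgeR adjusted p of 0.447 with the block; it lies outside the naming rule and was added after its value was seen. Mbtps1, the site-1 protease gene that cleaves both ATF6 and the sterol-regulated SREBP factors, was the one higher, with 73.9, 80.3 and 82 CPM in control and 89.4, 86.6 and 90.5 CPM in cholesterol samples (0.18, edgeR adjusted p = 0.0369 with the block). Mbtps2, the gene of the site-2 protease that makes the next cut, had -0.39 and an edgeR adjusted p of 0.0531 with the block, and was likewise named after its value was seen.

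Mitochondrial and cytosolic chaperones and proteases, together with the heat shock factor gene Hsf1, were 12 genes, with 1 call in each direction in the block fit. Hspa1b, an inducible HSP70 gene, had 7.48, 10.5 and 9.29 CPM in control and 2.56, 4.94 and 3.63 CPM in cholesterol samples. All cholesterol samples were below all controls, with a log2 fold change of -1.29 with condition alone and -1.31 with the block (edgeR adjusted p = 6.09e-06). Its near-identical neighbour Hspa1a had 3.29, 3.71 and 7.48 CPM in control and 0.69, 2.12 and 0.92 CPM in cholesterol samples, likewise without overlap, and edgeR's adjusted p was 0.0577 with the block. Reads may be shared between these copies, so the split between them is uncertain. Lonp1, a protease gene of the mitochondrial matrix, had 136, 127 and 110 CPM in control and 158, 143 and 130 CPM in cholesterol samples (log2 fold change 0.21, edgeR adjusted p = 0.0048 with the block).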

How the data were processed

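Messenger RNA selected with oligo(dT) was read from a single end on the DNBSEQ platform, per the labels. For each gene the authors deposited expected counts (27.9% to 29.5% of values not whole), and a normalized table whose values were taken as FPKM, since counts and values imply 1 length per gene (median CV between samples 0.367%). The submitters' processing notes name HISAT2 2.0.4, Bowtie2 2.2.5, RSEM 1.2.12, DESeq2 1.4.5 and the build GRCm38.p6, without roles. Counts were rounded and tested with edgeR 4.0.16 (R 4.3.3): filterByExpr (10 counts, 15 in total), TMM and the robust quasi-likelihood test, with Benjamini-Hochberg adjustment over 11277 genes and a threshold of 0.05. A test for whole counts had been planned, hence the rounding. Alternatives were DESeq2 1.42.0, limma 3.58.1 on log2(FPKM + 1) or log2(FPKM + 0.1), other filters, unrounded counts, adult globin genes left out, and samples left out. The methods were tested on simulated data with fold changes larger than those of the members here, so effects of the members' size were not covered. Standard errors and 95% intervals came from the edgeR F statistic. Coordinates are those of RefSeq genes.

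Samples sharing a number deviated together from their group means (correlations 0.689, 0.3 and 0.798, each above 0.1), so the numbers in the labels were taken as pairs. Control 1 and cholesterol 2 also correlated, at 0.298, close to the 0.3 of samples 2, so the pairing of samples 1 and 2 is uncertain. The other correlations between different numbers lay between -0.764 and 0.068. The block fits and the pair differences rest on this pairing. No library was a copy of another (chi-square per degree of freedom at least 8.199). A figure legend of the study gives its data as means of independent experiments, without saying so of these libraries. The labels name no separate animals or cultures, so p-values measure the spread between these samples, which may in part be technical.

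The members and lists were chosen with earlier results of these data known. Named genes were the 10 members, from each list those past the threshold in either fit (at most 6) and the 2 with the smallest p with condition alone, and the 5 genes most like Atf4. The study's other RNA-seq was not analysed here.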

Additional observations from a re-analysis of the deposited data

How the results depend on the processing

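The log2 fold changes of the 10 members were recomputed under 18 other settings. Of these 180 values, 13 changed sign and 2 passed the threshold, those of Atf5 (0.22) and Atf4 (-0.17) given in the report, so 1 member was called without both samples numbered 1 and 1 without both numbered 3. Eif2ak1 changed sign to 0.004 in limma on log2(FPKM + 1) and to 0.004 on log2(FPKM + 0.1). With single samples left out, no member was called and the log2 fold change of Eif2ak1 lay between -0.19 and 0.14, of Ddit3 between -0.24 and 0.12, of Trib3 between -0.15 and 0.32, of Chac1 between -0.039 and 0.2 and of Ppp1r15a between -0.26 and 0.32. Without a change of sign, Atf5 ranged from 0.002 to 0.25, Asns from 0.006 to 0.14, Eif2ak3 from -0.19 to -0.06, Eif2ak4 from -0.21 to -0.017 and Atf4 from -0.19 to -0.09. Where 1 arm then held 2 samples, the spread was shared between the groups. Pathway genes called rose from 0 with condition alone to 13 with the replicate block and 1 with DESeq2, whose share of calls over all genes is not given here. With the block and both samples numbered 1, 2 or 3 left out the number was 10, 8 and 16. The replicate block changed no member's call. The adjusted p for Atf4 between the replicate numbers was 0.0852 with no filter. The intervals cover counting and sample error together, and with 3 samples per group reach from -0.67 to 0.76 over the 10 members with condition alone.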
